A study of Mus musculus with 15 samples.

Results

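A set of 10 genes of Wnt signalling was followed through the differentiation of 3T3-L1 cells, a mouse line of preadipocytes that become lipid-storing adipocytes in culture. They were chosen by name and found by matching the Ensembl identifiers of the count files to mouse symbols. They are the Wnt ligands Wnt5a, Wnt10b, Wnt6 and Wnt5b, the secreted antagonists Sfrp1, Sfrp2, Sfrp5 and Dkk2, the receptor Fzd4 and the feedback gene Axin2. Fzd4 is a membrane protein and Axin2 an intracellular one, so these last 2 are neither ligands nor secreted. All 10 are among the 25700 genes of the files. A count was found for 9 of them, while Sfrp1 had none in any library. The 4 genes Wnt5a, Sfrp2, Sfrp5 and Fzd4 had enough counts to be tested beside 12279 genes in all, and the other 6 were not tested. Sfrp5 passed the filter on low counts through the day 6 libraries of the WT and MIGA2-GFP groups described below alone.

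RNA was sequenced from 15 libraries in 5 groups of 3. Cells labelled as having overexpressed MIGA2-GFP (MIGA2-GFP) were sampled at day 6. Cells labelled as MIGA2 depleted (MIGA2-KO) were sampled at day 6 and day 0, as were wild type (WT) cells. MIGA2, or mitoguardin 2, sits in the outer membrane of mitochondria, and the MIGA2-GFP protein joins it to green fluorescent protein. Day 0 is when confluent cells received dexamethasone, IBMX and insulin. Every group had been kept confluent for 48 h before that point, and every day 6 group had received the same inducers. How MIGA2 was depleted, whether the MIGA2-KO cells are 1 clone, and the promoter and parent cells of the MIGA2-GFP line were not given in the sources used here. MIGA2-GFP cells at day 0 were not analysed here. Library totals were 10748668 to 13443736 in MIGA2-GFP, 10956827 to 12151824 in day 6 MIGA2-KO, 12139151 to 12355905 in day 6 WT, 11867305 to 12619058 in day 0 MIGA2-KO and 19625147 to 26003871 in day 0 WT.

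The mRNA of the targeted gene did not follow all labels. Levels are given as CPM, counts scaled by library totals that TMM had adjusted. Miga2 stood at 165.6, 155.4 and 158.5 CPM in MIGA2-GFP, at 925.7, 74.48 and 70.02 CPM in day 6 MIGA2-KO, at 145.2, 159.5 and 181.8 CPM in day 6 WT, at 17.17, 21.41 and 22.55 CPM in day 0 MIGA2-KO and at 15.56, 17.75 and 13.63 CPM in day 0 WT. The library labelled day 6 MIGA2-KO replicate 1 carried more of it than any other library. The tests of Wnt5a, Sfrp2, Sfrp5 and Fzd4 on that group are therefore given without it as well, and other values where its removal ended a call, changed a sign or moved them by over 1.5 times. Miga2 averaged 159.8 ± 5.2 CPM in MIGA2-GFP and 162.2 ± 18.4 CPM in day 6 WT, and 20.38 ± 2.83 CPM in day 0 MIGA2-KO and 15.65 ± 2.06 CPM in day 0 WT (SD, n = 3 each). MIGA2-GFP against WT did not pass the test used below (log2 fold change -0.02 ± 0.67, adjusted p = 0.985, edgeR), nor did MIGA2-KO against WT at day 0 (0.38 ± 0.71, adjusted p = 0.708, edgeR). In these comparisons neither label shows in Miga2 mRNA. Their SEs rest on a spread shared by all groups, the library at 925.7 CPM included. At day 6, MIGA2-KO replicates 2 and 3 lay below every WT library. Which part of the gene was altered was not given in the sources used here, and the group names are those of the labels. Replicate 1 also stood apart from its group in day 6 WT and in day 0 WT. Its deviations from the group mean across genes correlated with GC content at -0.494 and 0.391 and with log length at 0.473 and -0.587. Such trends were not confined to replicate 1. For replicate 3 of the same groups the values were 0.434 and -0.576 with GC content, and -0.312 and 0.509 with log length. The 10 adipocyte markers, Cfd, Retn, Slc2a4 and Cidec among them, summed to 20420 to 22130 CPM in MIGA2-GFP, 6044 to 9628 CPM in day 6 MIGA2-KO, 31140 to 45260 CPM in day 6 WT, 52.89 to 54.52 CPM in day 0 MIGA2-KO and 51.23 to 71.96 CPM in day 0 WT. Cfd, Retn and Slc2a4 had no count in either day 0 group, and Cidec none in day 0 MIGA2-KO. Markers of other cell types also differed between the groups. The 5 epithelial markers summed to 8.397 to 10.76 CPM in MIGA2-GFP, 0.9579 to 3.217 CPM in day 6 MIGA2-KO and 13.2 to 23.88 CPM in day 6 WT, and to at most 0.1529 CPM in day 0 MIGA2-KO and 0.4065 CPM in day 0 WT, while the defining Epcam and Cdh1 had no count in any group. The 5 macrophage markers summed to 11.52 to 12.55 CPM in MIGA2-GFP, 17.06 to 22.64 CPM in day 6 MIGA2-KO, 9.609 to 15.69 CPM in day 6 WT, 77.0 to 79.8 CPM in day 0 MIGA2-KO and 71.11 to 102.5 CPM in day 0 WT, with Ptprc at 0 in every group. The 4 chondrocyte markers, with Acan at 0 in every group, summed to 17.52 to 19.3 CPM in MIGA2-GFP, 46.51 to 66.49 CPM in day 6 MIGA2-KO, 18.17 to 22.71 CPM in day 6 WT, 35.03 to 43.66 CPM in day 0 MIGA2-KO and 46.6 to 54.38 CPM in day 0 WT. At day 6 the mean epithelial sum has the order of Sfrp5 below and the chondrocyte sum is highest in MIGA2-KO, as Wnt5a is. The osteoblast sum was highest there too, at 25.6 to 27.13 CPM, and the skeletal muscle sum was highest in MIGA2-GFP, at 47.98 to 54.22 CPM. Whether such cells were present, and the part of these markers in the results, was not tested.

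Wnt proteins are lipid-modified signals that bind Frizzled receptors. In the canonical branch they also engage LRP5 or LRP6, which stabilises beta-catenin and switches on TCF/LEF target genes, and this branch is known to hold preadipocytes undifferentiated. In the other branches, for which Wnt5a is a usual ligand, beta-catenin is not the messenger. Secreted Frizzled-related proteins such as Sfrp2 and Sfrp5 bind Wnts outside the cell, and Sfrp5 is known as an adipokine, a protein that fat cells secrete.

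The results turn on 2 antagonists that moved in opposite directions over time and on the receptor that rose in both lines, so the 250 bases before the transcription start of these 3 genes are given here (RefSeq, GRCm38.p6, each 5′ to 3′ on the strand of its gene). The Sfrp2 stretch is chr3:83766071-83766320 on the forward strand, the Sfrp5 stretch chr19:42202253-42202502 on the reverse strand and the Fzd4 stretch chr7:89404116-89404365 on the forward strand. The Fzd4 stretch follows the RefSeq start, so its last bases lie past 89404355, the start of the gene in the coordinates given below. Capitals mark a match to the C/EBP letters TTGCNNAA.

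Sfrp2: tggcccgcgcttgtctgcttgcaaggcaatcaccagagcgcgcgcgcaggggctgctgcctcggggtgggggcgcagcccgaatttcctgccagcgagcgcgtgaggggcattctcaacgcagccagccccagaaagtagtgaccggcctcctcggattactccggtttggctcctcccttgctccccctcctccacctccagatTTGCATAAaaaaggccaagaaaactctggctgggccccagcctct

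Sfrp5: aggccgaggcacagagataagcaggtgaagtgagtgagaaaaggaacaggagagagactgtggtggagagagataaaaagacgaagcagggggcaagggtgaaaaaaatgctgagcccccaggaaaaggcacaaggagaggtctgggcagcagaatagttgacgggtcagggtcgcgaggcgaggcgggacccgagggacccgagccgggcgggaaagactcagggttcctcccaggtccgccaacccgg

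Fzd4: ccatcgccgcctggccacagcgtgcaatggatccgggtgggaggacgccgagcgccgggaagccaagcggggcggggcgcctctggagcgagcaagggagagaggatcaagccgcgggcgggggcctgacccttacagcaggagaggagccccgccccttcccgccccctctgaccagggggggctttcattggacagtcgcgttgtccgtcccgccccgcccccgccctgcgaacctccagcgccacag

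Both strands were searched for TTGCNNAA and for the TCF/LEF letters CTTTGAT and CTTTGAA. Neither match found overlaps a match to another of these motifs, and no other motif was searched for. The table of promoters holds 8 of the 10 genes, with 10 starts. The Sfrp2 stretch holds TTGCATAA, which begins 45 bases before the start. The other match lies before the third listed start of Wnt5b, where CTTTGAT begins 71 bases upstream. Of 32851 mouse promoters of the same length, 9.56% hold TTGCNNAA and 7.48% hold CTTTGAT or CTTTGAA. These are matches of letters, not measured binding sites.

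Wnt5a, the ligand named above, had 25.45, 27.86 and 27.80 CPM in MIGA2-GFP, 55.9, 84.86 and 82.3 CPM in day 6 MIGA2-KO, 31.65, 17.93 and 15.43 CPM in day 6 WT, 36.11, 37.39 and 36.58 CPM in day 0 MIGA2-KO and 27.26, 51.06 and 48.59 CPM in day 0 WT. Its 3 highest libraries were those of day 6 MIGA2-KO, which overlapped no other group. The day 0 groups overlapped each other, as did MIGA2-GFP and WT at day 6. Through its replicate 1, day 0 WT also overlapped MIGA2-GFP and day 6 WT. Wnt5a (ENSMUSG00000021994) lies on GRCm38 chromosome 14 at 28504750 to 28527448, forward strand. Over time the MIGA2-KO and WT lines moved in opposite directions. In MIGA2-KO cells Wnt5a rose, at 74.35 ± 16.0 CPM at day 6 against 36.69 ± 0.647 CPM at day 0 (SD, n = 3 each), a log2 fold change of 1.02 ± 0.26 (SE, adjusted p = 0.00478). That p, like every adjusted p here unless DESeq2 or limma is named, comes from edgeR's quasi-likelihood test, two-sided. Benjamini-Hochberg adjustment ran over the 12279 genes, or over all genes with a count in the fit without a filter. In the other alternatives it ran over the genes that each of them tested. Without the library labelled day 6 MIGA2-KO replicate 1 the log2 fold change was 1.19 and the call held. In WT cells it fell, at 21.67 ± 8.73 CPM at day 6 against 42.3 ± 13.1 CPM at day 0 (log2 fold change -0.96 ± 0.26, adjusted p = 0.00467, edgeR), although the ranges of the 2 days overlap through replicate 1 of each. With the 3 libraries that stood apart removed, the WT log2 fold change was -1.56. In bulk samples such as these, fewer cells of a type and less RNA per cell cannot be told apart.

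Between the lines Wnt5a did not pass at day 0, where MIGA2-KO against WT gave a log2 fold change of -0.21 ± 0.25 (adjusted p = 0.553, edgeR). It passed at -0.44 with the 3 libraries that stood apart removed. At day 6 Wnt5a was 3.42-fold higher in MIGA2-KO than in WT (log2 fold change 1.78 ± 0.26, adjusted p = 6.28e-05, edgeR). With the library labelled day 6 MIGA2-KO replicate 1 left out it stood at 1.955 and still passed. MIGA2-GFP was lower than MIGA2-KO at day 6 (-1.46 ± 0.26, adjusted p = 0.000412, edgeR), and without that library at -1.653, where it also passed. Against WT it stood at 0.32 ± 0.26 (adjusted p = 0.366, edgeR), a comparison that WT day 6 replicate 1 decides, since without that library it was 0.68 and passed. The MIGA2-KO libraries at day 6 enter several of these comparisons and the WT ones do too, so they are not independent of each other.

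The other 3 ligands were near the limit of detection. Wnt6, which in mouse preadipocytes inhibits fat cell formation, had 20 counts over the 3 MIGA2-GFP libraries, 5 in day 6 MIGA2-KO, 15 in day 6 WT, 1 in day 0 MIGA2-KO and 34 in day 0 WT. The MIGA2-KO groups were the lowest at both days. Its scaled ratio of MIGA2-KO to WT was 0.0581 at day 0 (exact 95% counting interval 0.00143 to 0.347) and 0.3 at day 6 (0.0853 to 0.869), and that of MIGA2-GFP to MIGA2-KO was 3.98 (1.45 to 13.6). Of the 5 counts in day 6 MIGA2-KO, 3 came from the library labelled replicate 1. With that library left out, the ratio of MIGA2-KO to WT at day 6 was 0.179 (0.0198 to 0.768) and that of MIGA2-GFP to MIGA2-KO was 6.69 (1.62 to 59.0), both on 2 counts in MIGA2-KO. These intervals cover counting error only. Wnt5b, reported to favour adipogenesis, had 6 counts in MIGA2-GFP, 2 in day 6 MIGA2-KO, 10 in day 6 WT, 2 in day 0 MIGA2-KO and 17 in day 0 WT. Of the 10 counts in day 6 WT, replicate 2 held 8. Wnt10b, the canonical ligand best known for holding preadipocytes undifferentiated, had 1 count in MIGA2-GFP, none in day 6 MIGA2-KO, 1 in day 6 WT, none in day 0 MIGA2-KO and 11 in day 0 WT. In MIGA2-KO at day 0 it was 1.85-fold lower than in day 0 WT, taking 3 counts over the MIGA2-KO group as the floor, which is 0.0792 CPM. That fold takes the 11 WT counts without error. The exact 95% counting intervals overlap, at 0.0 to 0.0974 CPM in MIGA2-KO and 0.0733 to 0.263 CPM in WT. Wnt6, Wnt5b and Wnt10b were tested in 1 setting, the fit without a filter on low counts. There Wnt6 in MIGA2-KO against WT at day 0 was the 1 call among them (log2 fold change -3.73 ± 0.92, adjusted p = 0.00633, edgeR). Wnt10b in the same comparison had an adjusted p of 0.1 (edgeR).

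**Figure D1:**
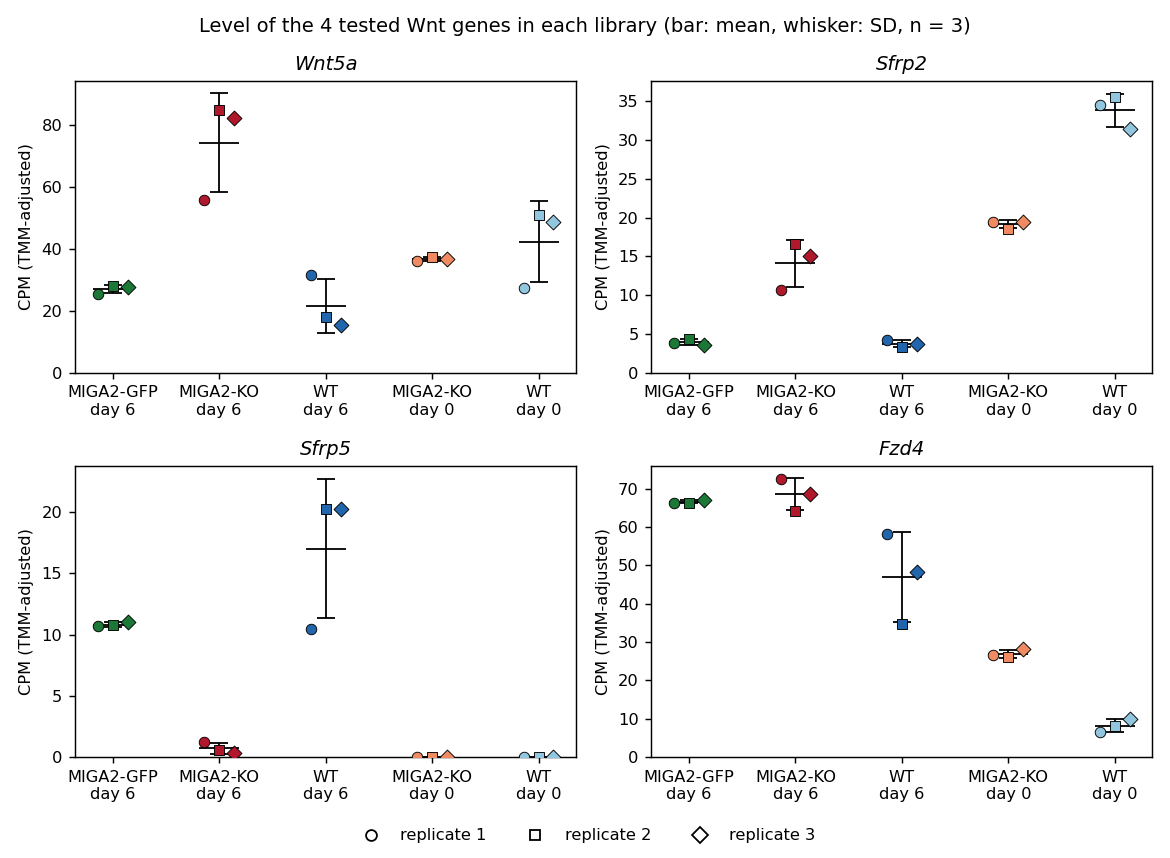
Levels of Wnt5a, Sfrp2, Sfrp5 and Fzd4 in CPM (linear axis, 1 panel per gene) in each library, with the group mean as a bar and the SD as a whisker (n = 3). Sfrp5 has no count in both day 0 groups and is low in day 6 MIGA2-KO, where Wnt5a has its 3 highest libraries.

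Sfrp2, a secreted Frizzled-related protein, had 3.757, 4.351 and 3.618 CPM in MIGA2-GFP, 10.69, 16.56 and 15.07 CPM in day 6 MIGA2-KO, 4.25, 3.314 and 3.688 CPM in day 6 WT, 19.5, 18.58 and 19.46 CPM in day 0 MIGA2-KO and 34.57, 35.57 and 31.48 CPM in day 0 WT. The order was WT at day 0, MIGA2-KO at day 0, MIGA2-KO at day 6 and then MIGA2-GFP and WT at day 6, and of neighbours in this order only the last pair overlapped. Sfrp2 (ENSMUSG00000027996) lies on chromosome 3 at 83766321 to 83774316, forward strand. Over time it fell in MIGA2-KO cells, with a log2 fold change of -0.44 ± 0.15 at day 6 against day 0 (adjusted p = 0.0261, edgeR). In WT cells it fell 9.0-fold, with a log2 fold change of -3.17 ± 0.17 (adjusted p = 5.9e-10, edgeR). The call in MIGA2-KO did not hold without the library labelled day 6 MIGA2-KO replicate 1, at -0.28 (adjusted p = 0.103, within a range of 0.0042 to 0.103 over 23 alternatives, edgeR, DESeq2 or limma), nor without any 1 of the 3 MIGA2-KO day 0 libraries. MIGA2-KO was lower than WT at day 0 (-0.82 ± 0.15, adjusted p = 0.000791, edgeR) and 3.75-fold higher at day 6 (1.91 ± 0.17, adjusted p = 6.26e-07, edgeR), or 2.08 without the library labelled day 6 MIGA2-KO replicate 1. MIGA2-GFP was lower than MIGA2-KO (-1.85 ± 0.17, adjusted p = 1.53e-06, edgeR), or -2.035 without that library. Against WT at day 6 MIGA2-GFP differed by 0.06 ± 0.19 (adjusted p = 0.817, edgeR).

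Sfrp5, the related adipokine, had 10.67, 10.76 and 11.04 CPM in MIGA2-GFP, 1.217, 0.5767 and 0.3483 CPM in day 6 MIGA2-KO and 10.49, 20.27 and 20.29 CPM in day 6 WT, and no count in the 6 day 0 libraries. The MIGA2-KO libraries at day 6 held 14, 7 and 4 counts, the most in the library labelled replicate 1, and all lay below every MIGA2-GFP and WT library of that day. Sfrp5 (ENSMUSG00000018822) lies on chromosome 19 at 42197971 to 42202252, reverse strand. Against the floor of 3 counts over the day 0 group, it was 8.99-fold higher at day 6 in MIGA2-KO (25 counts, or 5.88-fold on the 11 counts left without the library labelled replicate 1) and 421-fold higher in WT (533 counts). These folds take the day 6 counts without error. At day 6 it was 23.6-fold lower in MIGA2-KO than in WT (log2 fold change -4.56 ± 0.39, adjusted p = 4.32e-06, edgeR), and -5.157 without the library labelled day 6 MIGA2-KO replicate 1. MIGA2-GFP was 15-fold higher than MIGA2-KO (3.91 ± 0.39, adjusted p = 2.34e-05, edgeR), and 4.49 on the log2 scale without that library. Sfrp5 passed the filter on low counts only through the day 6 WT and MIGA2-GFP libraries, where it is high, which bears on both calls. Against WT, MIGA2-GFP stood at -0.65 ± 0.29 (adjusted p = 0.103, edgeR). WT day 6 replicate 1 was the low WT library, and without it the value was -0.93 and passed.

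The make-up of these 2 antagonists was set out per length, as CPM per kb of exon. Sfrp5 made up 76.3%, 73.7% and 77.6% of the Sfrp2 and Sfrp5 sum in MIGA2-GFP, 11.4%, 3.8% and 2.55% in day 6 MIGA2-KO and 73.7%, 87.4% and 86.2% in day 6 WT, and 0% in all day 0 libraries. The share in day 6 MIGA2-KO lay below every other day 6 library. The sum itself ran from 7.36 to 7.69 CPM per kb in MIGA2-GFP, 5.61 to 8.0 in day 6 MIGA2-KO, 7.49 to 12.4 in day 6 WT, 8.63 to 9.06 in day 0 MIGA2-KO and 14.6 to 16.5 in day 0 WT. At day 6 the sum in MIGA2-KO overlapped the other groups, while the share did not. Sfrp1 adds nothing to this sum, and taking 3 counts over a group as the limit that 0 counts allow, it was at or under 0.085 CPM in MIGA2-GFP, 0.0854 in day 6 MIGA2-KO, 0.0949 in day 6 WT, 0.0792 in day 0 MIGA2-KO and 0.0401 in day 0 WT.

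**Figure D2:**
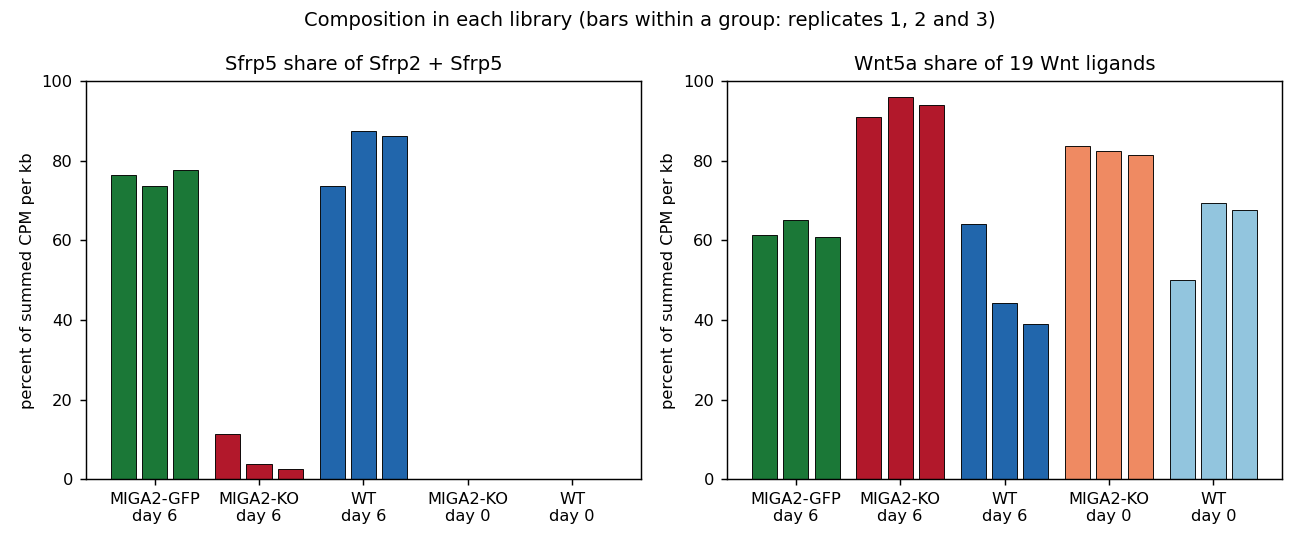
Left, Sfrp5 as percent of the summed CPM per kb of Sfrp2 and Sfrp5. Right, Wnt5a as percent of the summed CPM per kb of 19 Wnt ligands. Each bar is 1 library, in the order replicate 1, 2 and 3 within a group. In MIGA2-KO at day 6 Sfrp5 holds 2.55% to 11.4% of its sum and Wnt5a 91.0% to 96.0% of its own.

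By the same measure Wnt5a had the highest level of 19 Wnt ligands in 14 of 15 libraries, with Wnt4 highest in day 6 WT replicate 3. Of their summed CPM per kb Wnt5a made up 61.3%, 65.0% and 60.8% in MIGA2-GFP, 91.0%, 96.0% and 93.9% in day 6 MIGA2-KO, 64.1%, 44.4% and 39.0% in day 6 WT, 83.6%, 82.5% and 81.4% in day 0 MIGA2-KO and 50.0%, 69.4% and 67.6% in day 0 WT. Both MIGA2-KO groups lay above every MIGA2-GFP and WT library in this share. The ligand sum itself ran from 5.31 to 5.85 CPM per kb in MIGA2-GFP, 7.86 to 11.3 in day 6 MIGA2-KO, 5.05 to 6.31 in day 6 WT, 5.52 to 5.79 in day 0 MIGA2-KO and 6.97 to 9.4 in day 0 WT. At day 0 the sum was thus lower in MIGA2-KO than in WT, and Wnt5a itself did not pass between them. Wnt4 made up 26.6% to 27.6% of the sum in MIGA2-GFP, 0.696% to 5.01% in day 6 MIGA2-KO, 28.7% to 47.6% in day 6 WT, 0.944% to 3.03% in day 0 MIGA2-KO and 9.78% to 17.6% in day 0 WT.

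Markers of cell state moved with these genes. The 8 preadipocyte and fibroblast markers, all with counts in every group, summed to 5852 to 6162 CPM in MIGA2-GFP, 10890 to 18690 CPM in day 6 MIGA2-KO, 5317 to 5777 CPM in day 6 WT, 14280 to 15870 CPM in day 0 MIGA2-KO and 16200 to 20880 CPM in day 0 WT. The day 6 order is that of Wnt5a and Sfrp2, with MIGA2-KO highest, and the adipocyte markers given above have the order of Sfrp5. Per 1000 CPM of adipocyte markers, Sfrp5 stood at 0.482, 0.51 and 0.541 CPM in MIGA2-GFP, 0.126, 0.0932 and 0.0576 CPM in day 6 MIGA2-KO and 0.337, 0.463 and 0.448 CPM in day 6 WT. On that measure too MIGA2-KO lay below the other day 6 groups, but every MIGA2-GFP library lay above every WT one. In CPM the mean of Sfrp5 was instead higher in day 6 WT, at 17.02 beside 10.83 in MIGA2-GFP. Per 1000 CPM of preadipocyte markers, Wnt5a ran from 4.13 to 4.76 CPM in MIGA2-GFP, 4.54 to 5.13 CPM in day 6 MIGA2-KO and 2.78 to 5.48 CPM in day 6 WT, so the 3 groups overlapped, and 2.28 to 2.56 CPM in day 0 MIGA2-KO and 1.62 to 3.0 CPM in day 0 WT. On that measure day 6 lay above day 0 in MIGA2-KO, and in WT the 2 days overlapped with day 6 the higher on average, so the fall of Wnt5a over time in WT was not seen relative to these markers. Sfrp2 ran from 0.61 to 0.744 CPM in MIGA2-GFP, 0.853 to 0.982 CPM in day 6 MIGA2-KO and 0.623 to 0.736 CPM in day 6 WT, with MIGA2-KO above the others, and from 1.22 to 1.36 CPM in day 0 MIGA2-KO and 1.7 to 2.06 CPM in day 0 WT. Collagens make up 82.2% to 94.3% of the preadipocyte sum. Beyond these values, the part of the markers in the results was not tested.

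Dkk2, which blocks the co-receptors LRP5 and LRP6, had 13 counts in MIGA2-GFP, 14 in day 6 MIGA2-KO, 23 in day 6 WT, 2 in day 0 MIGA2-KO and 21 in day 0 WT. MIGA2-KO at day 0 was the lowest group. The scaled ratio of day 6 to day 0 was 7.55 in MIGA2-KO (exact 95% counting interval 1.73 to 68.4) and 2.59 in WT (1.37 to 4.93). Without a filter on low counts, the only setting that tested Dkk2, the rise passed in MIGA2-KO (log2 fold change 2.73 ± 0.98, adjusted p = 0.0404, edgeR) and the WT value was 1.36 ± 0.62 (adjusted p = 0.0803, edgeR).

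**Figure D3:**
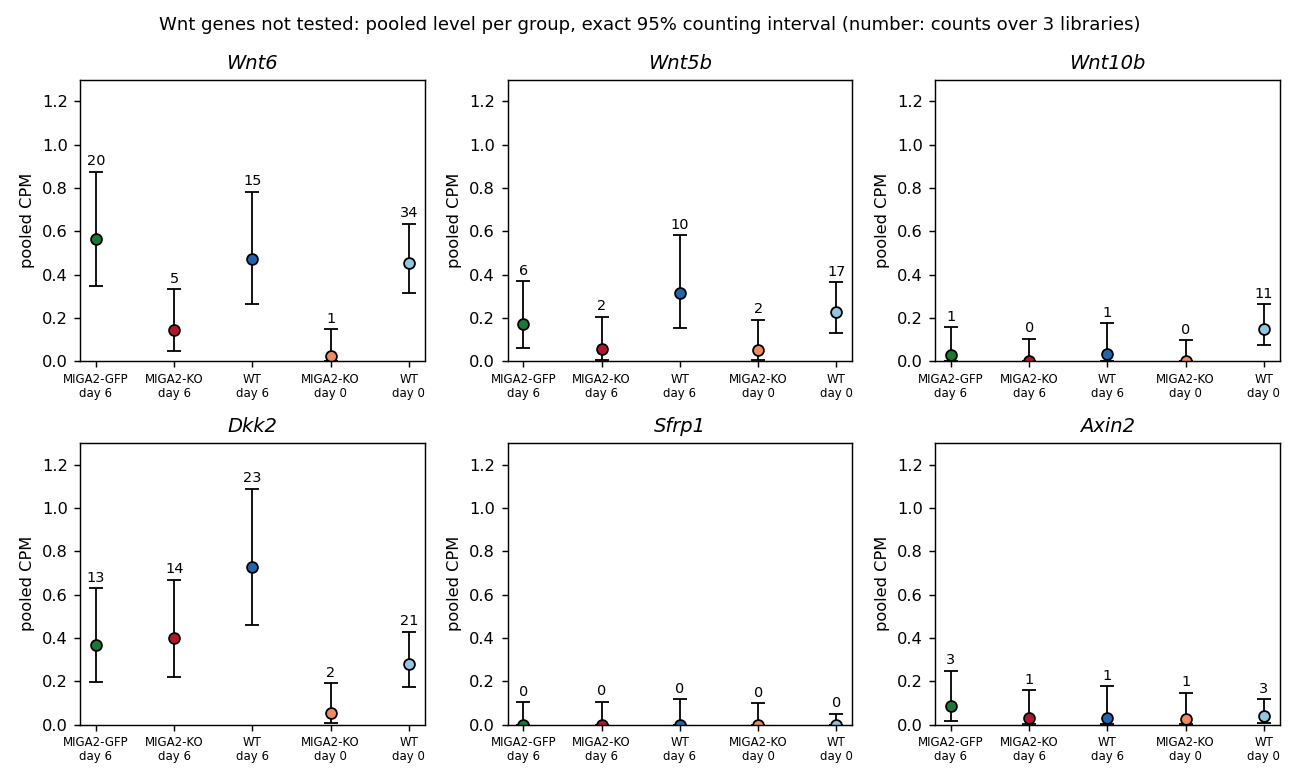
Pooled CPM (linear axis, 1 panel per gene) of the 6 genes that were not tested, with the exact 95% counting interval as a whisker and the counts over the 3 libraries of a group printed above it. Wnt6 and Dkk2 reach 34 and 23 counts, and Sfrp1 has none.

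Fzd4, a Frizzled receptor that binds Wnts and the unrelated ligand Norrin, had 66.26, 66.34 and 67.03 CPM in MIGA2-GFP, 72.6, 64.27 and 68.71 CPM in day 6 MIGA2-KO, 58.05, 34.7 and 48.14 CPM in day 6 WT, 26.56, 26.0 and 28.06 CPM in day 0 MIGA2-KO and 6.602, 7.995 and 9.942 CPM in day 0 WT. Only MIGA2-GFP and MIGA2-KO at day 6 overlapped, and WT at day 0 was lowest. Fzd4 (ENSMUSG00000049791) lies on chromosome 7 at 89404355 to 89413134, forward strand. It rose in both lines, with a log2 fold change of 1.35 ± 0.17 in MIGA2-KO (2.55-fold, adjusted p = 1.05e-05, edgeR) and 2.52 ± 0.18 in WT (5.73-fold, adjusted p = 1.02e-08, edgeR). In MIGA2-KO cells Fzd4 was already 3.28-fold above day 0 WT (1.71 ± 0.17, adjusted p = 1.17e-05, edgeR), and the gap at day 6 was 1.46-fold (0.54 ± 0.16, adjusted p = 0.00982, edgeR). Without the library labelled day 6 MIGA2-KO replicate 1 these stood at 1.31 for the rise in MIGA2-KO and 0.51 for the gap at day 6, and both still passed. MIGA2-GFP was above WT (0.50 ± 0.16, adjusted p = 0.0274, edgeR), a call lost in 6 of the alternatives and at 0.31 without WT day 6 replicate 2. MIGA2-GFP against MIGA2-KO gave -0.04 ± 0.16 (adjusted p = 0.851, edgeR), or -0.025 without the library labelled day 6 MIGA2-KO replicate 1.

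Axin2, a canonical target that feeds back to limit beta-catenin, had 3 counts in MIGA2-GFP, 1 in day 6 MIGA2-KO, 1 in day 6 WT, 1 in day 0 MIGA2-KO and 3 in day 0 WT. Every group lay at or under the floor of 3 counts, so a difference was not detectable at this depth.

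**Figure D4:**
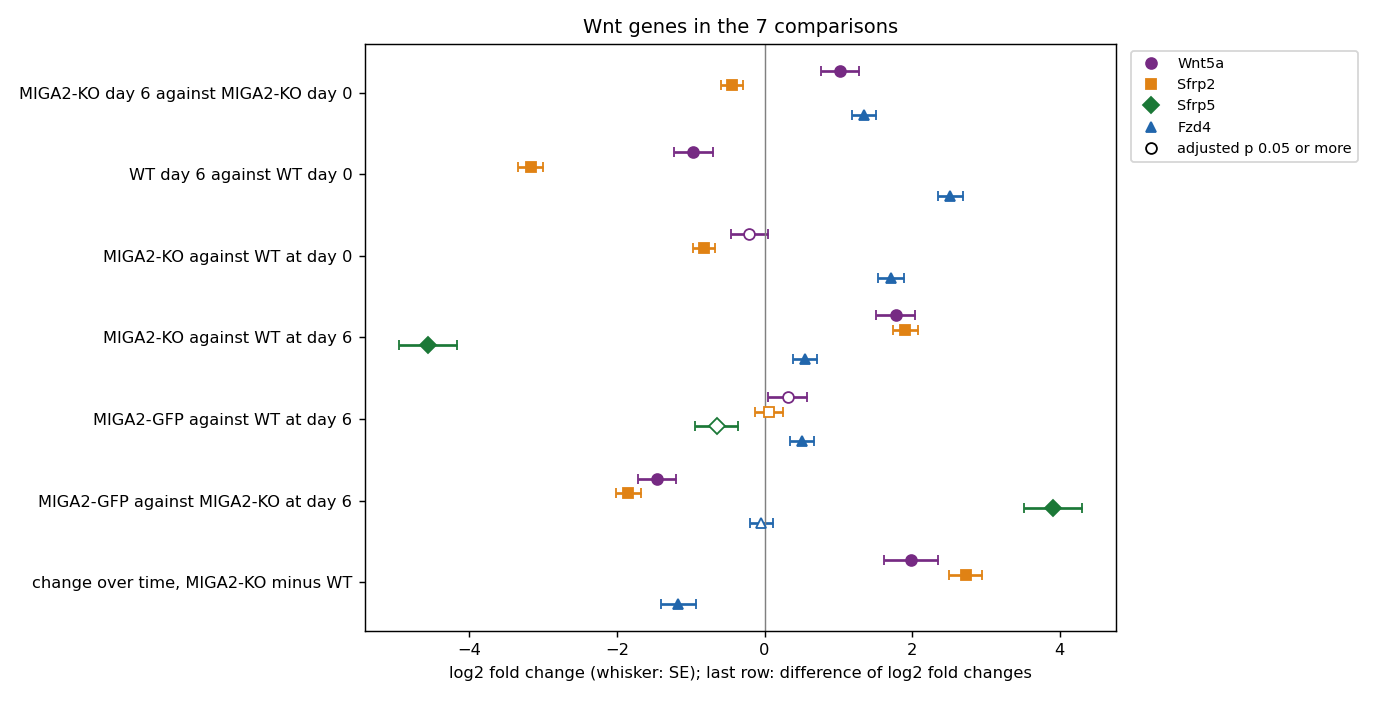
Log2 fold changes (x axis, whiskers are the SE) of Wnt5a, Sfrp2, Sfrp5 and Fzd4 in 7 comparisons. Open symbols did not pass an adjusted p of 0.05, and Sfrp5 is left out where a group had no count. Wnt5a lies on opposite sides of 0 over time in MIGA2-KO (1.02) and WT (-0.96).

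The calls of the 4 tested members are read against those of all genes. Over time in MIGA2-KO, 3 rose and 1 fell, where 44.3% of all tested genes were called, 23.3% higher and 21.0% lower. One of these rises was that of Sfrp5 from no count, on 14, 7 and 4 counts in the day 6 libraries. The gene passed the filter through the day 6 WT and MIGA2-GFP libraries, where it is high, which bears on its day 6 calls too. With only the MIGA2-KO groups in the fit, Sfrp5 was not tested. The fall, that of Sfrp2, is the call lost without some libraries, as given above. Over time in WT, 2 rose and 2 fell, Sfrp5 again among the rises, where 64.8% were called, 31.7% higher and 33.1% lower. For MIGA2-KO against WT, 1 was higher and 1 lower at day 0 (33.9% called, 16.1% higher and 17.7% lower), and 3 were higher and 1 lower at day 6 (60.7% called, 29.2% higher and 31.5% lower). For MIGA2-GFP at day 6, 1 was higher than in WT (35.3% called, 16.5% higher and 18.9% lower), and 1 was higher and 2 lower than in MIGA2-KO (47.9% called, 25.4% higher and 22.5% lower). With 4 genes, no test sets these counts apart from the shares of all genes.

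The change over time differed between the lines for each of the 3 members that could be compared, where 27.2% of all genes were called (13.7% higher and 13.6% lower). The change in MIGA2-KO minus that in WT was 1.98 ± 0.37 on the log2 scale for Wnt5a (adjusted p = 0.00115, edgeR), 2.73 ± 0.22 for Sfrp2 (adjusted p = 1.37e-06, edgeR) and -1.17 ± 0.24 for Fzd4 (adjusted p = 0.00211, edgeR). Without the library labelled day 6 MIGA2-KO replicate 1 these were 2.155, 2.895 and -1.209, and all 3 still passed. No such difference is given for Sfrp5, since both day 0 groups had no count.

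The rest of the pathway was read from 8 lists of 87 genes, of which 51 were tested and 13 had no count in any library. In MIGA2-KO cells 7 rose and 11 fell over time, with a median log2 fold change of -0.018, beside 0.0175 over all genes, of which 23.3% rose and 21.0% fell. In WT cells 14 rose and 22 fell, with a median of -0.24, beside -0.0413, where 31.7% of all genes rose and 33.1% fell. At day 6, 21 were higher and 8 lower in MIGA2-KO than in WT, with a median of 0.27, beside -0.0101, where 29.2% of all genes were higher and 31.5% lower. At day 0, 16 were higher and 9 lower in MIGA2-KO, where 16.1% of all genes were higher and 17.7% lower. MIGA2-GFP had 14 higher and 5 lower than WT (16.5% and 18.9% of all genes), and 8 higher and 16 lower than MIGA2-KO (25.4% and 22.5% of all genes). The lists were also read without the library labelled day 6 MIGA2-KO replicate 1, an alternative added for them after the data were seen. The counts became 9 and 11 over time in MIGA2-KO and 22 and 9 for MIGA2-KO against WT at day 6. They became 16 and 8 for MIGA2-GFP against WT and 8 and 19 for MIGA2-GFP against MIGA2-KO. Of all 12479 genes in that fit, 2504 rose and 2389 fell over time in MIGA2-KO. Against WT at day 6, 3591 were higher and 3852 lower in MIGA2-KO, and 2073 higher and 2539 lower in MIGA2-GFP. Against MIGA2-KO, 3037 were higher and 2955 lower in MIGA2-GFP.

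Of the other ligands, Wnt4 and Wnt9a were tested. Wnt4 averaged 6.281 CPM in MIGA2-GFP, 0.8637 CPM in day 6 MIGA2-KO, 8.886 CPM in day 6 WT, 0.4 CPM in day 0 MIGA2-KO and 4.449 CPM in day 0 WT. It was lower in MIGA2-KO than in WT at both days, by log2 fold changes of -3.46 ± 0.43 at day 0 and -3.36 ± 0.38 at day 6 (adjusted p = 5.7e-05 and 5.34e-06, edgeR). The library labelled day 6 MIGA2-KO replicate 1 held 1.652 CPM of Wnt4 and the other 2 averaged 0.4696 CPM, and without it the day 6 value was -4.217. Wnt9a fell over time in MIGA2-KO (-1.81 ± 0.32) and in WT (-2.75 ± 0.30). Wls, which carries Wnts to the cell surface, averaged 173.5 CPM in MIGA2-GFP, 301.4 CPM in day 6 MIGA2-KO, 103.7 CPM in day 6 WT, 441.8 CPM in day 0 MIGA2-KO and 364.6 CPM in day 0 WT. It fell in both lines, and at day 6 stood 1.54 ± 0.12 higher on the log2 scale in MIGA2-KO than in WT (adjusted p = 2.04e-07, edgeR). Porcn, the enzyme that attaches the lipid to Wnts, rose in both, by 0.86 in MIGA2-KO and 1.27 in WT.

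Among secreted modulators, Dkk3 did not pass over time in MIGA2-KO (0.83 ± 0.49) and fell in WT by 2.77 on the log2 scale. Its change over time differed between the lines by 3.59 ± 0.69 (MIGA2-KO minus WT, adjusted p = 0.00147, edgeR). Rspo2, an R-spondin that amplifies Wnt signals, stood at -1.52 ± 0.88 in MIGA2-KO without passing, or -2.211 without the library labelled day 6 MIGA2-KO replicate 1, and stood at -2.442 ± 0.563 in WT, where it passed. Rspo3, another R-spondin, rose in MIGA2-KO (0.76 ± 0.27, adjusted p = 0.0327, edgeR) and stood at -0.52 ± 0.32 in WT without passing. At day 6 Rspo3 was 2.29 ± 0.31 higher in MIGA2-KO than in WT (adjusted p = 2.67e-05, edgeR). Among receptors, Fzd1 moved against Fzd4. It averaged 96.1 CPM in MIGA2-GFP, 190.3 CPM in day 6 MIGA2-KO, 58.01 CPM in day 6 WT, 308.2 CPM in day 0 MIGA2-KO and 223.1 CPM in day 0 WT, and fell by 0.70 in MIGA2-KO and 1.94 in WT, a difference of 1.247 ± 0.153 (adjusted p = 4.32e-05, edgeR). Fzd2 and the co-receptor Ptk7 fell in both lines as well, with log2 fold changes of -1.39 and -1.10 in MIGA2-KO and -1.20 and -1.28 in WT. Fzd3 rose in both lines, as Fzd4 did, by 1.03 in MIGA2-KO and 0.56 in WT. Of the 12 tested genes of this list, 1 rose and 3 fell in MIGA2-KO, and 2 rose and 6 fell in WT. The shares of all genes are those given above for the 8 lists. Of the genes for Frizzled turnover, the R-spondin receptor Lgr6 was lower in MIGA2-GFP, at 0.5874 CPM, against 3.814 CPM in MIGA2-KO and 3.701 CPM in day 6 WT. Kremen1, a Dickkopf receptor, was 0.72 ± 0.15 higher in MIGA2-KO than in day 6 WT (adjusted p = 0.00101, edgeR).

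Inside the cell, Ctnnb1, the gene of beta-catenin, averaged 433.7 CPM in MIGA2-GFP, 616 CPM in day 6 MIGA2-KO, 307.7 CPM in day 6 WT, 981.5 CPM in day 0 MIGA2-KO and 714.8 CPM in day 0 WT. It fell over time in both lines and was 1.00 ± 0.14 higher on the log2 scale in MIGA2-KO than in day 6 WT (adjusted p = 3.75e-05, edgeR). Of the Dishevelled genes, Dvl1 was lower and Dvl2 higher in day 6 MIGA2-KO, at -1.07 and 1.06. Lef1, a TCF/LEF factor, averaged 31.37 CPM in MIGA2-GFP, 10.7 CPM in day 6 MIGA2-KO, 40.64 CPM in day 6 WT, 9.187 CPM in day 0 MIGA2-KO and 7.076 CPM in day 0 WT. It stood at 0.22 ± 0.22 over time in MIGA2-KO without passing and rose in WT, a difference of -2.30 ± 0.30 (adjusted p = 6.66e-05, edgeR). Without the library labelled day 6 MIGA2-KO replicate 1, which held 15.39 CPM beside a mean of 8.359 CPM in the other 2, the value in MIGA2-KO was -0.135, again without passing, and the difference -2.647. Pygo1, a beta-catenin cofactor, ran the other way, at 1.995 CPM in MIGA2-GFP, 20.48 CPM in day 6 MIGA2-KO, 2.372 CPM in day 6 WT, 23.81 CPM in day 0 MIGA2-KO and 7.33 CPM in day 0 WT. Tcf7l2 rose in both lines, by 0.80 in MIGA2-KO and 0.66 in WT.

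The textbook targets moved in both directions. Of 7 tested, 1 rose and 3 fell over time in MIGA2-KO, and 3 rose and 4 fell in WT, where the shares of all genes are those given above for the 8 lists. Myc rose in both, by 1.35 ± 0.17 in MIGA2-KO and 2.63 ± 0.16 in WT, and at day 6 averaged 30.23 CPM in MIGA2-GFP, 28.35 CPM in MIGA2-KO and 73.42 CPM in WT. Ccn5 fell in both, by 2.86 in MIGA2-KO and 2.70 in WT on the log2 scale, and Ccn4 by 1.26 and 1.75. Axin2, described above, was not detectable enough to be set beside them.

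**Figure D5:**
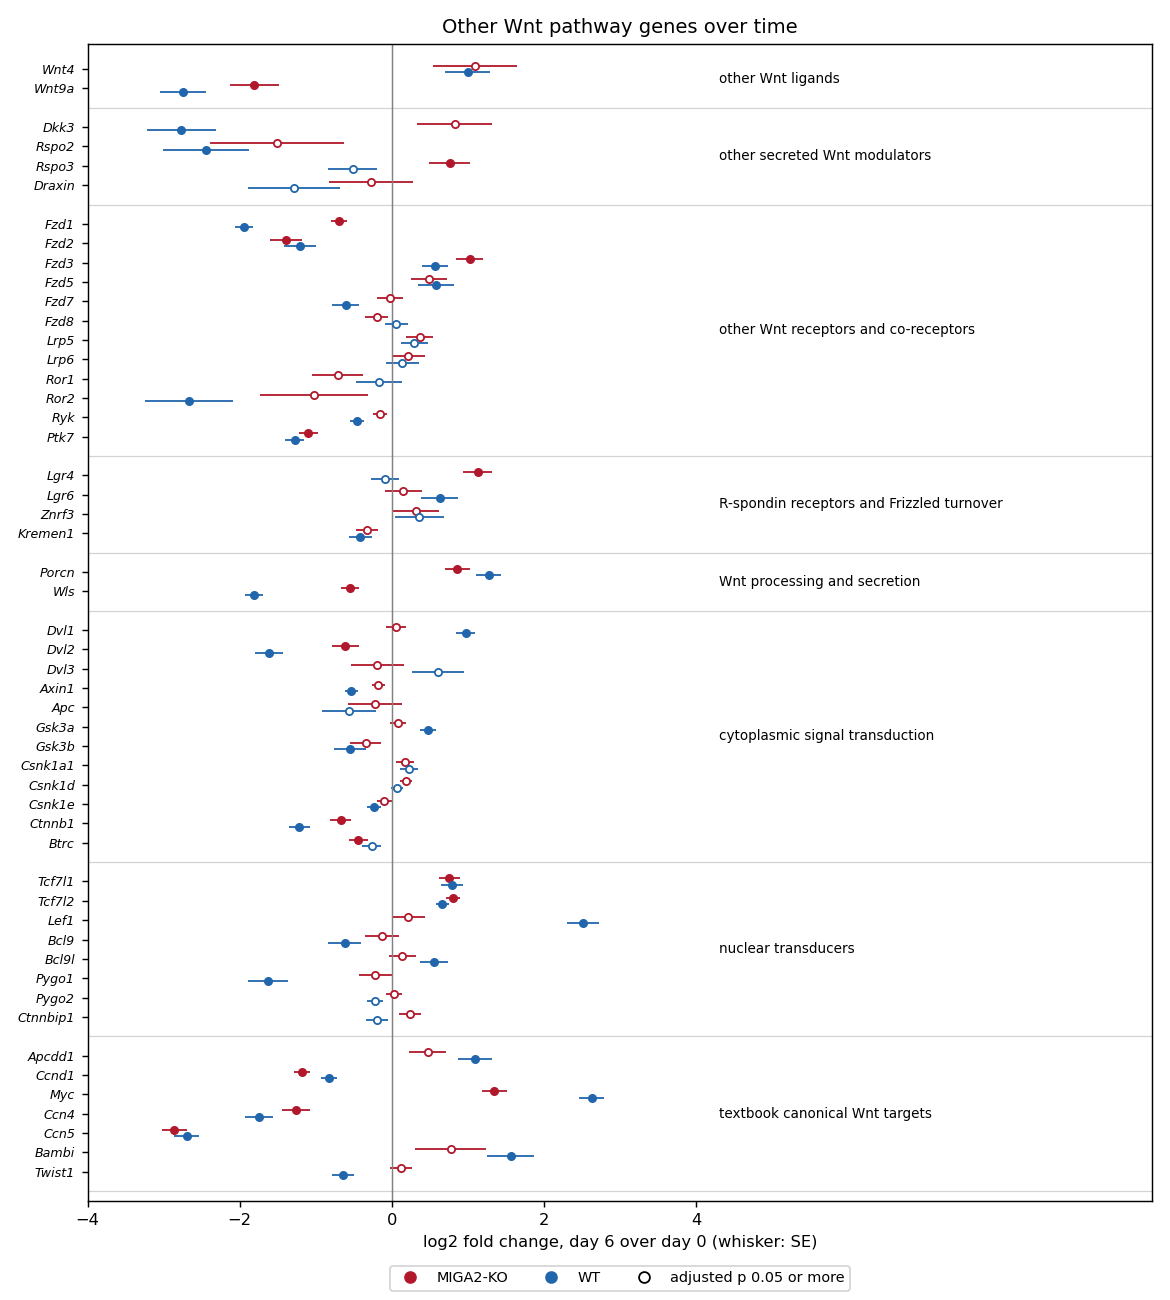
Log2 fold change of day 6 over day 0 (x axis, whiskers are the SE) of the 51 tested genes in 8 lists of other Wnt pathway genes, MIGA2-KO above WT for each gene. Open symbols did not pass an adjusted p of 0.05. Lef1 lies near 0 in MIGA2-KO (0.22) and to the right in WT (2.52).

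The genes with the most similar pattern were looked up as a description, by Pearson's r of log2 CPM over the 15 libraries, which share the 5 groups. For Wnt5a they were Maf (0.959), Mylip (0.953) and Ppargc1a (0.949). For Sfrp2 they were Cnn3 (0.989), Rai14 (0.983) and Sertad4 (0.979). For Sfrp5 they were Tmem120b (0.997), Gstz1 (0.995) and 1600014C10Rik (0.994). For Fzd4 they were Pttg1ip (0.988), Qsox2 (0.987) and Map3k5 (0.984). The 4 sets share no gene with each other.

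The remaining members lie, in GRCm38, on chromosome 15 at 98770712 to 98778150 (Wnt10b, ENSMUSG00000022996), chromosome 6 at 119432531 to 119544347 (Wnt5b, ENSMUSG00000030170), chromosome 1 at 74771892 to 74785322 (Wnt6, ENSMUSG00000033227), chromosome 8 at 23411502 to 23449632 (Sfrp1, ENSMUSG00000031548), chromosome 3 at 132085292 to 132180304 (Dkk2, ENSMUSG00000028031) and chromosome 11 at 108920349 to 108950783 (Axin2, ENSMUSG00000000142). Antisense genes share exons with Wnt5a (Gm2670), Sfrp2 (Gm26771) and Axin2 (Gm11670). The strand setting used for counting was not given in the sources used here, so reads of these pairs cannot be told apart.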

How the data were processed

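The authors deposited raw read counts by gene, in 1 file for each of the 15 libraries. Per the labels' protocols, total RNA was made into libraries with a stranded TruSeq kit. Per the submitters' processing notes, bcl2fastq 2.19, Trimmomatic, STAR 2.5.4b, featureCounts and edgeR were used with GRCm38.p5. The annotation release, the strand setting and the treatment of reads that map to more than 1 locus were not given in the sources used here. Of the 25700 identifiers 25587 matched a symbol in GENCODE vM21 and 113 did not.

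The analysis used edgeR 4.0.16 in R 4.3.3. Genes were kept by filterByExpr (minimum count 10, minimum total 15), scaled with TMM and fitted with 1 term per group over all 15 libraries (biological coefficient of variation 15.96%). Quasi-likelihood tests were adjusted by Benjamini-Hochberg over the 12279 genes, with a threshold of 0.05. Each SE is the size of the log2 fold change over the root of its F value. Levels are CPM on TMM-adjusted totals, and CPM per kb divides by the union of exons. Ratios of pooled counts carry exact 95% intervals, and folds against 0 counts use a floor of 3 counts over the group. The intervals cover counting error only, and these folds take the counts of the other group without error. The fit was tested on simulated data.

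Whether the replicates came from separate cultures is not in the labels, so the p-values cover the spread among these libraries alone, which may be technical. Replicate numbers were not taken to pair the samples. The members, the gene lists and the 3 libraries left out together as an alternative were chosen with earlier results of these data known. Named beside the 10 members and Miga2 are up to 3 genes per pathway list with the smallest adjusted p over time in WT, and the 3 nearest patterns per tested member. Fzd3 and Rspo3 were added because they moved unlike genes named from their lists. Alternatives were DESeq2 1.42.0 (its test and its size factors), limma 3.58.1 voom with quality weights, no filter, the compared groups alone, a replicate block, removal of trends with GC content and length, raw library totals, and leaving out each library or the 3 that stood apart. The labels name no sequencing batch.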

Additional observations from a re-analysis of the deposited data

Results flagged for a closer look

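For 3 genes the change over time differed between the lines by a test of the difference itself, with 3 libraries in each of the 4 groups. Wnt5a rose in MIGA2-KO and fell in WT, a difference of 1.98 on the log2 scale (MIGA2-KO minus WT, 1.983 before rounding, adjusted p = 0.00115 in edgeR). All 3 MIGA2-KO libraries of day 6 lay above all 3 of day 0. In WT the ranges overlapped through replicate 1, at 31.65 CPM at day 6 and 27.26 CPM at day 0. Sfrp2 fell in both lines, by 0.44 in MIGA2-KO and 3.17 in WT, a difference of 2.73 (adjusted p = 1.37e-06, edgeR). The call on its fall in MIGA2-KO was lost without the library labelled day 6 MIGA2-KO replicate 1. It was also lost without any 1 of the 3 MIGA2-KO day 0 libraries. Fzd4 rose in both, by 1.35 in MIGA2-KO and 2.52 in WT, a difference of -1.17 (adjusted p = 0.00211, edgeR). For Fzd4 and Sfrp2 the MIGA2-KO libraries at day 0 lay between those of WT at day 6 and at day 0.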

How the results depend on the processing

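Of 22 or 23 alternatives per gene and comparison, none reversed a call on Wnt5a, Sfrp2, Sfrp5 or Fzd4. The 2 sign changes were in Sfrp2 of MIGA2-GFP against WT, which was not called and ran from -0.043 to 0.14 when 1 library was left out, with -0.034 without WT day 6 replicate 2 and -0.043 without MIGA2-GFP replicate 2. That comparison was the least stable: 1 member was called, against 3 with voom, 0 with only the compared groups, 3 when the 3 libraries standing apart were dropped, 2 after removal of GC and length trends, and 0 to 3 when 1 library was left out. Fzd4 lost its call there in 6 alternatives (adjusted p = 0.0567 to 0.137, edgeR). Over all genes it gave 7174 calls with voom, 7625 with the 3 libraries left out and 2759 to 5438 without 1 library (2759 without WT day 6 replicate 2), beside 4338. The difference between the lines over time gave 7611 with voom, 7655 with the 3 left out and 2541 to 5186 without 1 library (5186 without WT day 0 replicate 1), beside 3346. Voom also gave 8212 calls for MIGA2-KO over time (5442), 6742 for MIGA2-KO against WT at day 0 (4159) and 8950 for MIGA2-GFP against MIGA2-KO (5886). The causes were not tested. Deviations of same-numbered replicates from their group means correlated at -0.723, -0.363 and -0.524 between WT at day 6 and at day 0, and at -0.124 to 0.125 in the 27 pairs from other groups. No 2 groups had all 3 correlations above 0.1, so the numbers were not taken as pairs. The cause of the negative sign within WT was not tested. A replicate block changed no call on a member, and gave 7578 calls over time in WT, beside 7956. Such a block gives each replicate number 1 effect shared by all groups. It cannot take up a negative correlation within WT, so the unchanged calls do not bear on it. Wnt5a in MIGA2-KO against WT at day 0 gained a call with voom (-0.43) and with the 3 libraries left out (-0.44). Depth limits Wnt10b, Wnt5b, Wnt6, Dkk2 and Axin2, which had 0 to 34 counts per group.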
